A study of Mus musculus with 20 samples.

Results

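The fatty acid binding proteins described here are 6 genes, Fabp1, Fabp2, Fabp3, Fabp4, Fabp5 and Fabp7, taken by gene symbol from the 48440 genes of the count table. Messenger RNA of gonadal fat pads and livers was compared between wild-type (WT) mice and mice described as deficient for protein kinase C epsilon (gene Prkce). The latter are labelled AdEpsKO, shortened to KO below; the sources used here do not expand that label, so the allele and the cells that carry the deletion are not known. All mice were C57BL/6, ate a high fat diet for 1 week and were fasted for 6 h; the sources used here do not give their age or sex. WT fat, KO fat, WT liver and KO liver each held 5 libraries, 1 per mouse, or 20 in all. The sources used here do not state whether fat and liver libraries of the same number came from the same mouse.

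Fatty acid binding proteins are small cytosolic proteins that hold a long-chain fatty acid inside a barrel of beta strands. They carry fatty acids between membranes, lipid droplets and the enzymes of oxidation and esterification, and some deliver ligands to the PPAR nuclear receptors. Fabp1 is known as the liver form, Fabp2 as the intestinal form, Fabp3 as the heart and muscle form, Fabp4 as the adipocyte form, Fabp5 as the epidermal form and Fabp7 as the brain form. Fabp1 is a classic target gene of PPAR alpha in hepatocytes and Fabp4 of PPAR gamma in adipocytes.

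In the GRCm38 build, Fabp5 (chromosome 3, 10012548 to 10016607, plus strand) and Fabp4 (chromosome 3, 10204088 to 10208576, minus strand) belong to a cluster of 5 family genes that spans 288.6 kb and also holds Pmp2, Fabp9 and Fabp12. Fabp2 lies elsewhere on chromosome 3 (122895072 to 122899506), Fabp3 on chromosome 4 (130308595 to 130315463), Fabp1 on chromosome 6 (71199827 to 71205023) and Fabp7 on chromosome 10 (57784881 to 57788450), all on the plus strand. The other genes of the cluster were almost silent. Over all 20 libraries Fabp12 held 44 counts, Fabp9 held 3 and Pmp2 held 3, and Fabp6, the ileal form, held 0. Of the 50-base stretches of the annotated transcripts, 29.2% of those of Fabp3 recur in the pseudogene Fabp3-ps1 and 4.42% of those of Fabp5 in other loci, so reads of these genes could be split by the counting. Fabp3-ps1 held 19 counts over all libraries.

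RefSeq promoter windows (GRCm38.p6, 250 bases before to 50 after the start) were matched for Fabp1, Fabp2, Fabp3 and Fabp7. They were searched on both strands for AGGTCA repeated in the same direction after any 1 base (N), with at most 1 mismatch, a direct repeat known to be bound by PPAR with RXR and by HNF4, and for TATAAA. The Fabp1 window held both motifs and the other windows held neither. Of all 32851 windows, 0.554% held the direct repeat and 13.6% held TATAAA. In the Fabp1 window the repeat began 67 bases before the RefSeq start and TATAAA began 30 bases before it. That RefSeq start lies downstream of the GENCODE gene start at 71199827. The 60 bases just before the GENCODE start of Fabp1 are shown, which end before the TATAAA at 71199849 to 71199854. They are shown because Fabp1 led the family in liver and its window alone among the 4 held the repeat (chr6:71199767-71199826, plus strand, capitals mark the repeat, which reads on the minus strand).
Fabp1 promoter: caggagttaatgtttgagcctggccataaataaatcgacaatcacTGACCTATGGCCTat
The match describes letters in this window; binding was not measured.

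Library totals ran from 12880933 to 17276907 expected counts in fat and from 13836370 to 20784145 in liver. Levels below are CPM, counts scaled to library size, after TMM scaling over all 20 libraries. Prkce was 36.4 ± 10.2 CPM in WT fat and 22.5 ± 4.10 in KO fat (SD, n = 5 each), with no overlap between the groups, as for 1.25% of all genes tested (two-sided exact permutation p = 0.00794, the smallest that 5 against 5 allows; edgeR adjusted p = 0.687 over all genes). In liver it was 19.7 ± 4.89 CPM in WT and 15.4 ± 3.57 in KO (exact permutation p = 0.135). These are totals over the whole gene, so reads outside a deleted part would still count. Tissue markers matched the labels: Adipoq was 2733 ± 761 CPM in WT fat and 2.59 ± 3.17 in WT liver. Traces of other tissues were present in some libraries, and several are given beside the results they touch.

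Each tissue was led by a single member. Fabp4 was the most abundant member in fat and ranked 5th of all genes by CPM in WT fat and 6th in KO fat, where it took 1.25% ± 0.174 and 1.02% ± 0.133 of all counts. Fabp1 led in liver and ranked 35th in WT and 42nd in KO, with 0.309% ± 0.134 and 0.245% ± 0.0697 of all counts. To set genes beside each other, CPM were divided by the length of the longest annotated transcript, which for Fabp4 and Fabp5 is a retained-intron model, or by the longest protein-coding transcript. Summed over the 6 members per kb of coding transcript, Fabp4 made up 97.1% ± 0.778 of the family in WT fat and 96.0% ± 1.18 in KO fat. On the same scale Fabp1 made up 97.0% ± 0.388 in WT liver and 96.2% ± 1.93 in KO liver.

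**Figure D1:**
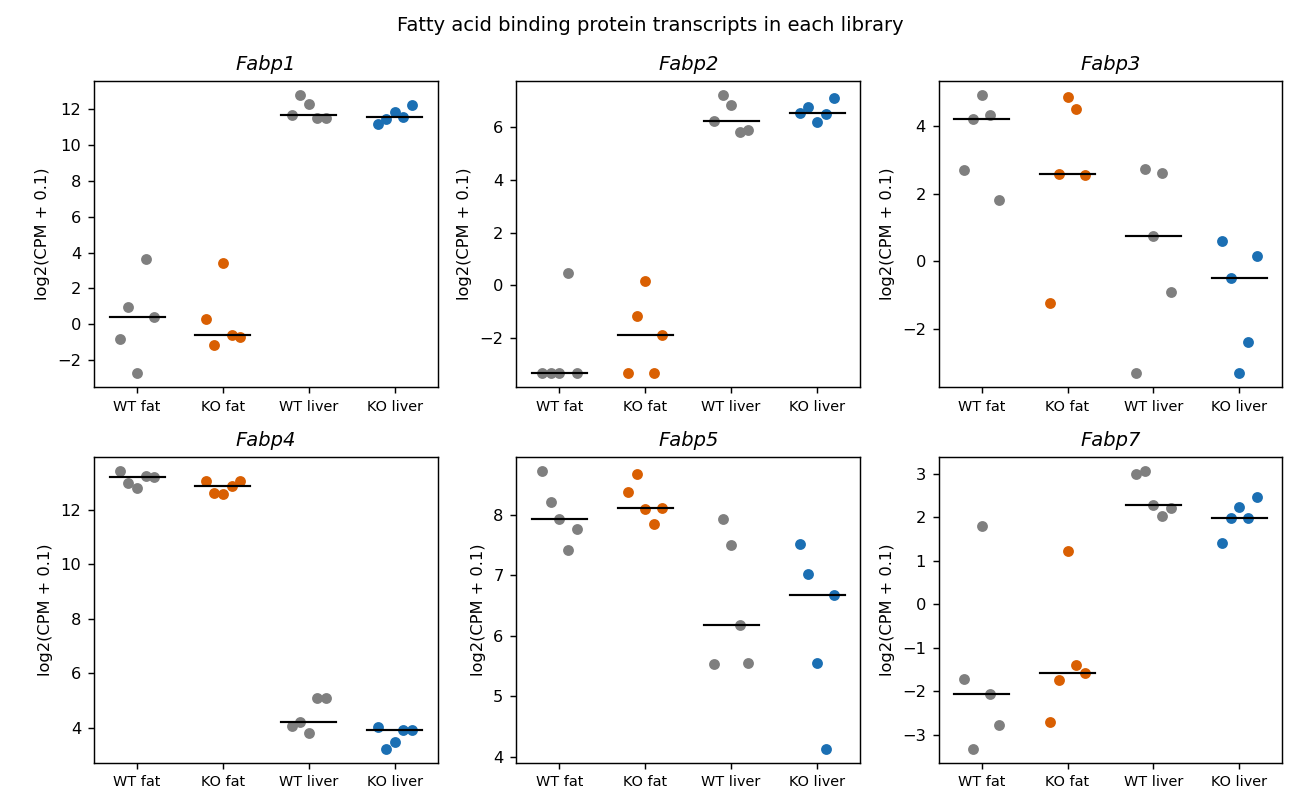
Level of each member in each library, as log2(CPM + 0.1), for WT fat, KO fat, WT liver and KO liver; points are libraries (5 per group) and the black line is the group median. Fabp4 was high in every fat library and Fabp1 in every liver library, and these genes and Fabp5 were detected in all 20 libraries.

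In WT fat the order of levels per kb of longest transcript was Fabp4 (2147 ± 360), Fabp5 (83.4 ± 29.8), Fabp3 (19.2 ± 13.3), Fabp1 (5.77 ± 9.32), Fabp7 (0.862 ± 1.68) and Fabp2 (0.268 ± 0.599). The first 3 were separate from each other, and the ranges of Fabp3 and Fabp1 overlapped, as did the last 3 within their SD. In WT liver the order was Fabp1 (7746 ± 3315), Fabp2 (93.3 ± 40.8), Fabp5 (36.4 ± 27.6), Fabp7 (6.67 ± 2.31), Fabp4 (5.53 ± 2.32) and Fabp3 (3.55 ± 3.82). Fabp1 stood clear of Fabp2 there and Fabp5 of Fabp7, and the other neighbours overlapped. Per kb of coding transcript Fabp5 in WT liver was 119 ± 90.6 and Fabp4 was 26.1 ± 10.9. The mean of Fabp5 then lay above that of Fabp2, with overlapping ranges (46.6 to 246 and 58.2 to 153). Fabp4 then lay above Fabp7 without overlap.

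Fabp1, the main fatty acid carrier of hepatocytes, was at 3251, 7148, 5100, 2958 and 2960 CPM in the WT liver libraries 1 to 5. The KO liver libraries were at 2345, 2869, 3726, 3030 and 4773 CPM. The highest library was WT and the lowest KO, and the groups overlapped.

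Fabp2, best known from enterocytes, was also detected in every liver library. WT liver libraries held 73.9, 147.4, 113.4, 56.1 and 59.2 CPM, and KO liver libraries held 91.2, 108.3, 71.6, 88.8 and 136.4 CPM. The 7 markers of intestinal epithelium summed to 0.361 to 0.677 CPM in WT liver and 0.264 to 0.690 in KO liver, with Alpi, Lct and Sis at 0. In WT fat only library 4 held Fabp2, 1.29 CPM. Its intestinal sum, 9.15 CPM, was the highest in fat, and its hepatocyte sum without Cyp2e1 was 570.8 CPM. KO fat 3 held the most Fabp2 in KO fat, 1.01 CPM, with sums of 1.55 and 556.2 CPM. The part of these tissues in the Fabp2 levels was not tested.

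Fabp4, the adipocyte carrier that binds hormone-sensitive lipase, was at 11031, 8077, 7105, 9740.3 and 9458 CPM in WT fat. In KO fat it was at 8551, 6325, 6022, 7534 and 8386 CPM. The 2 lowest libraries were KO and the 3 highest WT, with overlap between them. Its range over the 10 fat libraries was 1.83-fold, the narrowest of the members.

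Fabp5, found in many cell types including adipocytes and macrophages, had the smallest difference between the tissues. It was at 422.6, 296.1, 243.1, 171.4 and 217.8 CPM in WT fat and at 329.4, 407.1, 272.8, 230.7 and 274.3 CPM in KO fat. In liver it was far more variable, with 46.0, 243.0, 181.2, 72.6 and 46.7 CPM in WT and 182.7, 128.9, 46.9, 17.5 and 102.2 CPM in KO. The highest liver library exceeded the lowest by 13.9-fold, against 2.47-fold in fat, and both liver groups held high and low libraries. KO fat 2 held the most Fabp5 in KO fat, and also 1983 CPM of 8 urothelial and squamous epithelial markers. The other fat libraries held 19.1 to 40.7 CPM of these markers. The part of these transcripts in the Fabp5 levels was not tested.

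Fabp3, the carrier of oxidative muscle and brown fat, was at 6.38, 18.6, 30.4, 20.03 and 3.41 CPM in WT fat. In KO fat it was at 0.32, 5.92, 29.0, 22.7 and 5.75 CPM. Libraries with much Fabp3 also held more brown adipocyte transcripts: the 7 markers of that list, none at 0, summed to 117.2, 404.0, 483.7, 374.6 and 96.8 CPM in WT fat and 19.2, 263.9, 650.3, 432.3 and 166.0 CPM in KO fat. The 8 skeletal muscle markers summed to 845 and 354 CPM in WT fat 2 and 3 and to 578 CPM in KO fat 2. The other fat libraries held 15.9 to 205 CPM of these markers. In liver Fabp3 was at 0, 6.58, 1.58, 6.03 and 0.43 CPM in WT and 1.41, 0.60, 0, 0.09 and 1.01 CPM in KO. The 2 highest, WT liver 2 and 4, also held the most skeletal muscle transcripts, 142.5 and 256.3 CPM summed over 8 markers, against 0.532 to 28.1 CPM in the other liver libraries. The part of these transcripts in the Fabp3 levels was not tested.

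Fabp7, known from glia, was low in both tissues. WT liver libraries held 7.85, 8.29, 4.73, 3.96 and 4.53 CPM and KO liver libraries 2.55, 3.86, 4.63, 3.87 and 5.42 CPM. The 8 macrophage markers summed to 329 to 598 CPM in WT liver and 291 to 372 in KO liver, and were highest in WT liver 1 and 2, as Fabp7 was. KO liver 5, however, held the most Fabp7 of KO liver, 5.42 CPM, with the lowest macrophage sum of all liver libraries, 291 CPM. In fat Fabp7 stood out in 1 library of each genotype, WT fat 3 (3.40 CPM) and KO fat 3 (2.23 CPM), and the other 8 held 0 to 0.28 CPM; these 2 libraries also had the highest macrophage sum of their group, 2337 and 1582 CPM. KO fat 4 had nearly as high a macrophage sum, 1465 CPM, with Fabp7 at 0.28 CPM, and KO fat 3 was also the highest KO fat library in brown adipocyte and hepatocyte transcripts. The part of macrophage transcripts in these levels was not tested.

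Traces of Fabp1 in fat were likewise uneven. WT fat held 0.46, 1.88, 0.05, 12.3 and 1.23 CPM and KO fat 1.13, 0.35, 10.7, 0.56 and 0.52 CPM. The 2 high libraries, WT fat 4 and KO fat 3, held 570.8 and 556.2 CPM of 7 hepatocyte transcripts (the list without Cyp2e1, which fat expresses). Fabp1 counts were 3.65% and 3.58% of Alb counts there, inside the 1.60% to 5.72% seen in the liver libraries. The other fat libraries, with 1 to 44 Fabp1 counts, ran from 0.54% to 3.55%, some inside and some below the liver range. The part of hepatocyte transcripts was not tested.

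**Figure D2:**
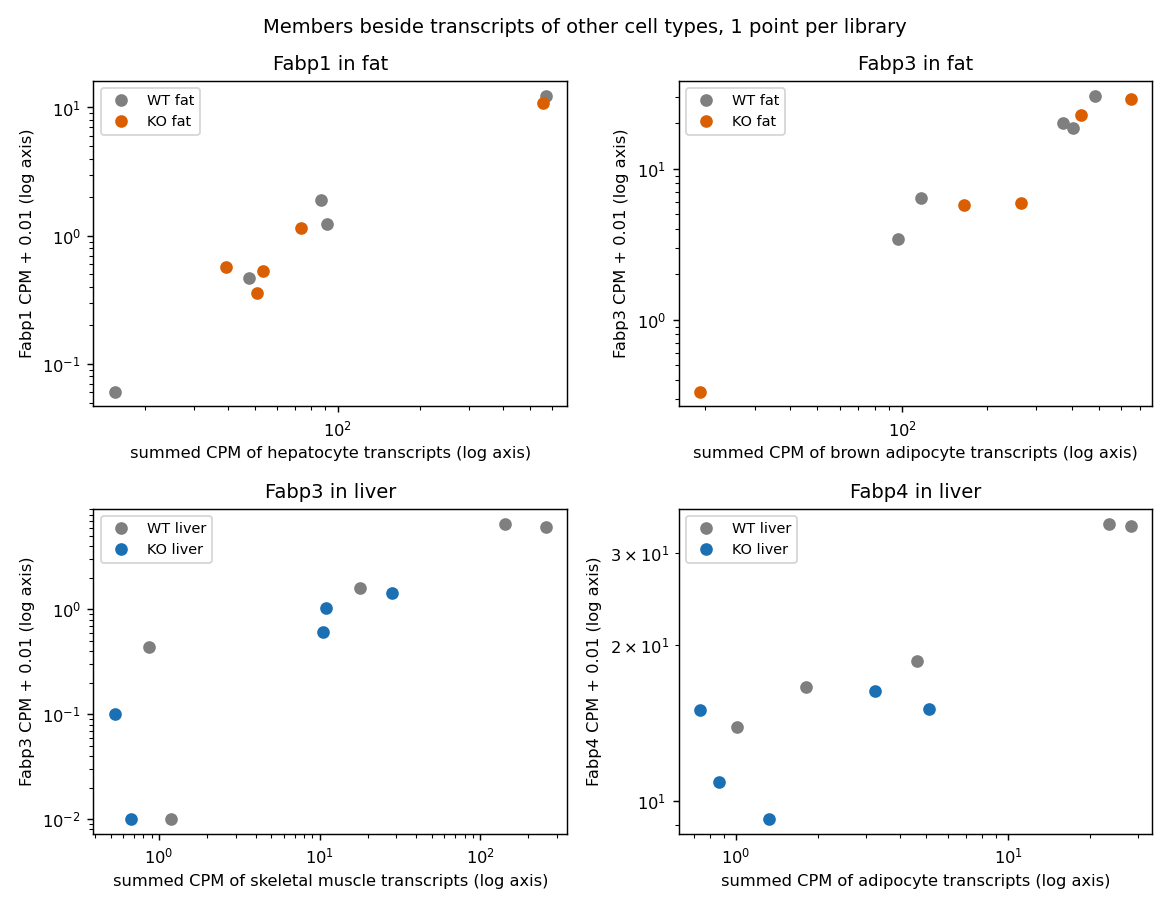
Level of a member (CPM + 0.01, log axis) against the summed CPM of a marker list (log axis), 1 point per library: Fabp1 in fat with hepatocyte transcripts, Fabp3 in fat with brown adipocyte transcripts, Fabp3 in liver with skeletal muscle transcripts and Fabp4 in liver with adipocyte transcripts. The libraries named in the text (WT fat 4 and KO fat 3 for Fabp1, WT liver 2 and 4 for Fabp3, WT liver 4 and 5 for Fabp4) lie at the upper right.

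All 6 members differed between WT fat and WT liver by edgeR's quasi-likelihood test with Benjamini-Hochberg adjustment over all genes, where 74.3% of the 14739 genes tested were called. Fabp3, Fabp4 and Fabp5 were higher in fat and Fabp1, Fabp2 and Fabp7 lower, beside 38.4% and 35.9% of all genes. Fabp2 and Fabp7 were below the count filter in fat alone. They entered this test through their liver counts, so their direction was largely set by the filter. Groups did not overlap for Fabp1, Fabp2, Fabp4 and Fabp7, as for 62.4% of all genes, so such differences were common. Fabp4 was 389.9-fold higher in fat (95% interval 202 to 752, adjusted p = 5.78e-09), with no overlap. Fabp1 was lower in fat by a log2 difference of -10.37 (SE 1.26, adjusted p = 1.26e-05) and Fabp2 by -8.36 (SE 0.752, adjusted p = 8.82e-07). Without WT fat 4 the Fabp1 difference was -12.14, and the remaining 4 WT fat libraries held no Fabp2 count, at least 2513-fold lower than WT liver against a floor of 3 counts over the group. Fabp7 differed by -2.97 (SE 0.948, adjusted p = 0.0138) and by -5.84 without WT fat 3, and its call was lost with no filter on low counts (adjusted p = 0.0511). WT fat 4 is the highest WT fat library for Fabp1 and Fabp2, and WT fat 3 for Fabp7. The larger differences without these libraries therefore follow from the choice.

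The tissue differences of Fabp3 and Fabp5 in WT mice lay close to the threshold. Fabp3 was 5.40-fold higher in WT fat (95% interval 1.5 to 19.4, edgeR adjusted p = 0.0209), and Fabp5 2.30-fold (1.13 to 4.68, adjusted p = 0.0348); both groups overlapped in both genes. The Fabp3 call was lost without WT fat 3, WT fat 4, WT liver 3 or WT liver 5, each left out alone (adjusted p from 0.0510 to 0.0717), with log2 differences of 2.07 to 2.32 against 2.43 in all libraries. The Fabp5 call was lost without WT fat 1, 2 or 3 or without WT liver 1, 4 or 5 (adjusted p from 0.0647 to 0.0927), with log2 differences of 0.98 to 1.25. Both calls were also lost without WT fat 2 and 3, the WT fat libraries richest in skeletal muscle transcripts (adjusted p of 0.151 and 0.113), and without WT liver 4 and 5 (0.0636 and 0.196).

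In KO mice the same 6 directions were called, where 74.4% of the 14603 genes tested were, 38.8% higher in fat and 35.6% lower. Here too Fabp2 and Fabp7 entered the test through their liver counts, which largely set their direction. Groups did not overlap for 63.1% of all genes and for 5 members, Fabp3 being the exception. Fabp4 was 567-fold higher in KO fat than in KO liver (95% interval 339 to 949), Fabp3 20.4-fold (3.66 to 114) and Fabp5 3.24-fold (1.49 to 7.04; no overlap), with edgeR adjusted p of 1.29e-09, 0.00477 and 0.0108. The Fabp3 call was lost with the replicate number as a block (adjusted p = 0.0586) and by limma-voom (0.0717). Fabp1, Fabp2 and Fabp7 differed by -10.26, -8.29 and -2.71 on the log2 scale (adjusted p of 1.63e-05, 2.99e-07 and 0.00578). Without KO fat 3 the Fabp7 difference was -4.32, which follows from the choice, as that library is the highest KO fat library for Fabp7.

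No member differed between KO and WT fat by edgeR's test, where 0% of the 14707 genes tested were called (0 genes; 1048, or 7.13%, had an unadjusted p under 0.05, DESeq2 called 13 and limma-voom 0). Fabp4 was at 9082 ± 1524 CPM in WT and 7364 ± 1158 in KO, a ratio of 0.809 (95% interval 0.611 to 1.07, adjusted p = 0.718). The summed adipocyte markers had a median of 21291 CPM in WT fat and 16335 in KO fat; in bulk tissue, fewer cells of a type and less RNA per cell cannot be told apart. Fabp5 had a ratio of 1.12 (0.776 to 1.61, adjusted p = 0.899), and its log2 difference of 0.16 ran from 0.0363 to 0.38 with 1 library left out. The intervals of Fabp3, 0.215 to 3.03, and Fabp1, 0.120 to 5.70, were too wide to place the difference, and Fabp2 and Fabp7 were below the count filter in fat.

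In liver no member was called either, against 0.00752% of the 13298 genes tested (1 gene; 1745, or 13.1%, had an unadjusted p under 0.05, DESeq2 called 132 and limma-voom 3). The level of Fabp1 in KO divided by that in WT was 0.777 (95% interval 0.510 to 1.19, edgeR adjusted p = 0.594) and Fabp2 a ratio of 1.10 (0.697 to 1.72, adjusted p = 0.878). Fabp5 had a ratio of 0.805 (0.257 to 2.52, adjusted p = 0.885). Fabp7 was at 5.87 ± 2.04 CPM in WT and 4.06 ± 1.07 in KO, a ratio of 0.686 (0.475 to 0.992, adjusted p = 0.369). Groups overlapped for all 6 members, and did not for 2.84% of all genes.

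Fabp4 and Fabp3 showed the lowest liver ratios, and in both the highest WT libraries also held transcripts of another tissue. Fabp4 was at 16.6, 18.6, 13.9, 33.8 and 34.2 CPM in WT liver and 16.3, 9.22, 10.9, 15.0 and 15.0 CPM in KO liver, a ratio of 0.564 (95% interval 0.373 to 0.852, edgeR adjusted p = 0.261). WT liver 4 and 5 were highest, and held 28.2 and 23.4 CPM of 6 adipocyte markers (the list without Gpd1 and Lipe, which liver expresses) against 0.739 to 5.12 CPM in the other liver libraries. Without these 2 libraries, a choice made after seeing the data, the log2 difference of Fabp4 went from -0.83 to -0.30 (adjusted p = 0.483). Fabp3 had a log2 difference of -2.20 (SE 1.12, adjusted p = 0.433), and of -0.02 without WT liver 2 and 4, the libraries with most muscle transcripts (adjusted p = 0.998). The libraries left out are also the highest WT libraries for the gene itself, so a smaller difference without them follows from the choice. The part of adipocyte or muscle transcripts in either difference was not tested.

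**Figure D3:**
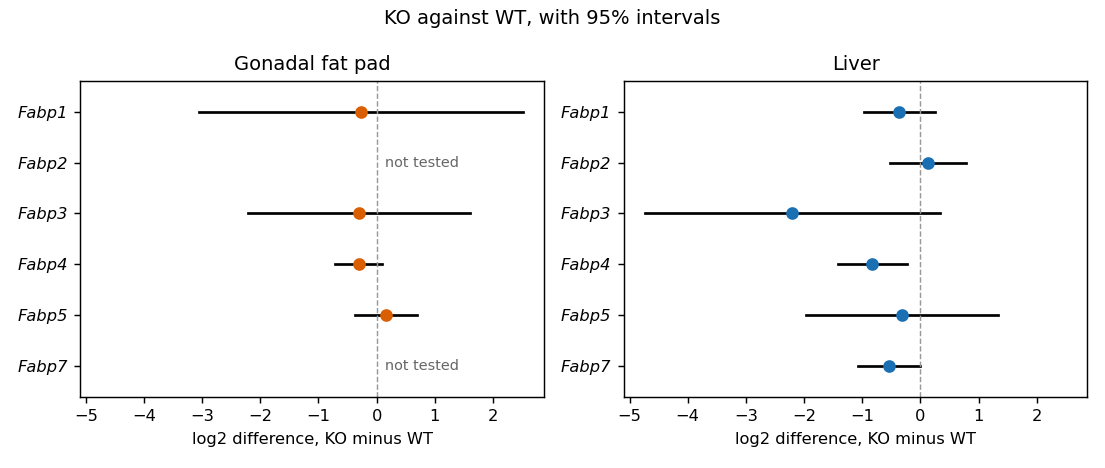
Log2 difference, KO minus WT, of each member, with fat on the left and liver on the right, with 95% intervals from edgeR; members below the count filter are marked as not tested. The intervals of Fabp4 and Fabp7 in liver lie below 0 before adjustment, and no member passed the adjusted threshold.

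The genotype difference was not shown to differ between the tissues for any member: 0% of 15652 genes were called by the interaction test (0 genes; 840, or 5.37%, had an unadjusted p under 0.05, DESeq2 called 2 and limma-voom 0). For Fabp4 the fat difference minus the liver difference was 0.52 on the log2 scale (SE 0.369, 95% interval -0.26 to 1.29). Fabp2 and Fabp7, below the count filter in fat, entered this test through their liver counts. Their intervals, -2.32 to 2.42 and -2.55 to 2.99, were too wide to place a difference.

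The genes whose levels followed each member most closely were found by the root mean square (RMS) difference of centred log2 CPM over the 10 libraries of a tissue, leaving out genes whose mean was under 5 CPM. In fat, Fabp1 lay nearest to the plasma protein genes Apoa1 (0.32), Gc (0.40) and Alb (0.43), against its own RMS of 1.85, and Fabp3 nearest to Cidea (0.34), Ucp1 (0.46) and Cpt1b (0.64), against 1.78. Cidea and Ucp1 are brown adipocyte genes. Fabp4 lay nearest to Proca1 (0.08), Tdrp (0.09) and Dbi (0.09), the last an acyl-CoA binding protein, and Fabp5 to Pgd (0.20), Ramac (0.22) and Mid1ip1 (0.22), against 0.26 and 0.38.

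In liver, Fabp3 lay nearest to the muscle genes Tnnt3 (1.00), Ttn (1.10) and Myh4 (1.13), against its own RMS of 1.98. Among the genes nearest to Fabp7 were Slc15a3 (0.19) and B430306N03Rik (0.20), against 0.46. Fabp1 lay nearest to Fam25c, Tmem125 and Bpgm (0.20 each, against 0.46), and Fabp2 to Nudt7 (0.21), Tsc22d1 (0.22) and Arsg (0.23), against 0.45. Fabp4 lay nearest to Slc1a5 (0.31), Gpx3 (0.31) and Igfbp1 (0.32), against 0.58, and Fabp5 to Gm16551 (0.61), Serpina3k (0.70) and Ces3b (0.72), against 1.12.

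The pathway around the members was read from the same comparison of WT fat with WT liver, in which 38.4% of all genes tested were higher in fat and 35.9% lower. Of 13 genes of fatty acid uptake and activation tested, 4 were higher in fat and 7 lower. The fatty acid transporter Cd36 was at 2944 CPM in WT fat and 144 in WT liver and Slc27a1 at 530.1 and 13.4, while the liver transporters Slc27a2 and Slc27a5 were at 6.36 and 0.922 CPM in WT fat and 2057 and 1541 in WT liver. Of the nuclear receptors, 3 of 11 were higher in fat and 7 lower, with Pparg at 164 CPM in WT fat and 11.3 in WT liver and Ppara at 8.20 and 281. Of 13 partners in lipid release and storage, 10 were higher in fat and 1 lower. PPAR alpha targets were lower in fat for 13 of 15 and higher for 2, and PPAR gamma targets higher for 11 of 13 and lower for 1.

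Between genotypes, none of these lists held a called gene. In fat, 10 of 13 PPAR gamma targets had a negative log2 difference (median -0.16, against 0.00 over all genes), beside 49.88% of all genes. Cfd, the adipokine adipsin, was at 4075 CPM in WT and 2483 in KO (edgeR adjusted p = 0.687). Uptake genes were negative for 7 of 12 (median -0.12), with Slc27a1 at -0.75 (SE 0.209, adjusted p = 0.687). Release and storage genes were negative for 9 of 13 (median -0.05), with the lipase gene Pnpla2 at -0.48, and PPAR alpha targets for 9 of 12 (median -0.05). Nuclear receptors were negative for 7 of 10 (median -0.07). Adipocyte markers, of which Adipoq, Cidec, Plin1, Gpd1, Retn and Cfd are also PPAR gamma targets, were negative for 6 of 8 (median -0.22). Macrophage markers were negative for 6 of 8 (median -0.32) and skeletal muscle markers for 8 of 8 (median -1.06). Endothelial markers were negative for only 2 of 8 (median 0.07) and brown adipocyte markers for 3 of 7 (median 0.06). The part of these cell types in the lists was not tested.

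In liver, PPAR alpha targets had a median log2 difference of -0.03, with 9 of 15 negative. Release and storage genes were negative for 12 of 12 (median -0.08), beside 49.99% of all genes. Macrophage markers were negative for 8 of 8 as well (median -0.69), endothelial markers for 8 of 8 (median -0.11) and hepatocyte markers for 7 of 8 (median -0.20). Skeletal muscle markers were negative for 6 of 6 tested (median -2.88) and adipocyte markers for 3 of 3 tested (median -0.09). WT liver 4 and 5 held the adipocyte transcripts given above. The part of these cell types in these lists was not tested. Uptake genes were negative for 8 of 12 (median -0.06), nuclear receptors for 8 of 11 (median -0.09) and PPAR gamma targets for 6 of 7 (median -0.32). Among more distant lipid-binding relatives, the retinol carrier Rbp7 had a log2 difference of -0.45 in fat (adjusted p = 0.687).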

How the data were processed

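Gonadal fat pad and liver RNA (20 libraries, 5 mice per group) was, per the labels' protocols, purified with Qiagen RNeasy and made into libraries with the stranded mRNA chemistry of TruSeq. The authors deposited expected counts per gene; Trim Galore 0.2.8, STAR 2.4.0d, RSEM 1.2.12, DESeq2 and GRCm38 are named in the submitters' processing notes. For their settings, annotation release and strand option the sources used here give nothing. RSEM shares reads that fit several genes among them, which can blur close relatives. Counts were rounded to whole numbers, and 48058 gene IDs were matched to a symbol.

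Each comparison was fitted with edgeR 4.0.16 (R 4.3.3) over all genes that passed filterByExpr (minimum count 10, minimum total 15), with TMM scaling, the robust quasi-likelihood test and a Benjamini-Hochberg threshold of 0.05. The p-values test a difference between groups against the variation between libraries within groups. Fat and liver libraries were treated as unpaired, though shared mice are not known. Depth was 12880933 to 20784145 counts per library. CPM were scaled by TMM over all 20 libraries, and marker sums by library totals. Prkce was tested by exact permutation of log2 CPM. Positions and lengths came from GENCODE M21 and promoters from RefSeq. The code was checked on simulated counts. Named genes were the 6 members, Prkce, family relatives, up to 4 of the most abundant genes of each list in the tissue described, and the 3 genes most alike to each member. Marker lists covered adipocytes, hepatocytes, skeletal muscle, macrophages and other cell types. Some genes that this rule names are not reported here. Members and lists were chosen with earlier results of these data known. Alternatives were other scalings, filters, DESeq2 1.42.0, limma-voom (limma 3.58.1), a replicate block, each library left out, and libraries with transcripts of another tissue left out.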

Additional observations from a re-analysis of the deposited data

Results flagged for a closer look

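In 5 of the 24 groups of 5 libraries (6 members in 4 groups), 1 library lay far above the rest, its gap to the next value exceeding 0.71 of the group's range. This cut-off is set for about 1 in 20 groups of independent, normally distributed values. CPM near 0 are not such values, and WT fat 4 and KO fat 3 each recur among the flags, so that rate does not apply here. Fabp1 was at 12.32 CPM in WT fat 4, with the next library at 1.88, and at 10.73 CPM in KO fat 3, with the next at 1.13. Fabp2 was at 1.292 CPM in WT fat 4 and at 0 in the other WT fat libraries. Fabp7 was at 3.404 CPM in WT fat 3, with the next at 0.204, and at 2.232 CPM in KO fat 3, with the next at 0.282.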

How the results depend on the processing

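Genes called between KO and WT liver numbered 15 with no filter on low counts, 132 with DESeq2, 3 with limma-voom, 2 with all 20 libraries in 1 fit, 3 without the muscle-rich liver libraries, 11 without the adipocyte-rich ones (chosen after seeing the data) and 0 to 3 with 1 library left out. DESeq2 called 13 genes in fat and 2 in the interaction; the cause was not tested. Signs turned for members that passed no test. In fat, Fabp1 was 0.012 without KO fat 2 (high in urothelial transcripts) and -2.31 to 1.53 with 1 library left out, and Fabp3 was 0.53 without the muscle-rich libraries and -0.86 to 0.0615. In liver, Fabp2 was -0.16 without the adipocyte-rich libraries and -0.0156 to 0.38 with 1 left out, and Fabp5 was 0.0468 without the muscle-rich ones and -0.68 to 0.12. In the interaction, Fabp1 was -0.33 by limma-voom and -1.97 to 1.87 with 1 left out, Fabp2 -1.14 to 5.18 and Fabp7 -1.35 to 3.09. Levels per kb moved with the length used, by construction: per coding transcript (chosen after seeing the data), Fabp4 was 10140.0, 8218, 26.14 and 14.82 and Fabp5 273.7, 306.8, 119.4 and 96.89 in WT fat, KO fat, WT liver and KO liver, and Fabp7 in KO liver was 3.251 over joined exons. Between WT tissues, 18 of 120 member values lost their call, and between KO tissues 2 of 119, both of Fabp3; upper quartile scaling gave 65.1% of WT calls higher in fat against 51.7%.

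The replicate numbers were not used as pairs in the main fits. Over genes, the deviations of same-numbered libraries from their group means correlated from -0.232 to 0.342 between WT and KO fat. They correlated from -0.164 to 0.189 between WT and KO liver. Between WT fat and WT liver the range was 0.003 to 0.158 (2 of 5 best with their own number). Between KO fat and KO liver it was -0.018 to 0.047 (1 of 5). These values were set against no reference, so they cannot tell whether same-numbered fat and liver libraries came from the same mouse. With the replicate block, 3 genes were called in liver and 0 in fat, and Fabp3 between KO tissues was 3.64 (adjusted p = 0.0586).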
